A study of Mus musculus with 9 samples.

Results

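The 10 genes described here encode the building blocks of the cytoskeleton: the alpha-tubulins Tuba1a, Tuba1b and Tuba1c, the beta-tubulins Tubb2a, Tubb2b, Tubb5 and Tubb6, the cytoplasmic actins Actb and Actg1, and vimentin (Vim). They were chosen by name from a table of 21470 genes. All 10 passed the filter on low values (at least 1 FPKM in at least 3 libraries), as did 10142 genes in all. The table holds RNA sequencing of mouse liver in 9 libraries, 3 from sham-operated mice (sham), 3 from mice with bile duct ligation (BDL) and 3 from ligated mice given ligustilide (BDL+LIG). Ligation closes the common bile duct, so that bile backs up into the liver. Ligustilide is a plant phthalide, found for example in Angelica root. Its dose is uncertain: the series' design text says 10 mg/kg and the sample titles carry the number 20. The labels give no strain, sex, age or time after surgery, and they do not say whether each library is a separate mouse, so p-values measure the spread between libraries, which may be technical.

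Microtubules are built from dimers of an alpha- and a beta-tubulin, and each of these comes from several genes (isotypes) whose products assemble into the same polymer. Actin filaments form from beta-actin (Actb) and gamma-actin (Actg1), which differ little in protein sequence and occur together in most cells that are not muscle. Vimentin forms the intermediate filaments of mesenchymal, endothelial and blood-derived cells, whereas hepatocytes and bile duct cells build theirs mainly from keratins. Tubulin, actin and several reference genes are widely used to scale other measurements, on the assumption that their own level is constant.

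Levels are in FPKM, a fragment number corrected for the length of the transcript and the depth of the library, so levels of different genes can be set side by side. Groups were compared on the scale of log2(FPKM + 1). Each difference is given ± SE as limma estimated it, and p-values were adjusted over the 10142 tested genes, with a threshold of 0.05. On this scale the change of a gene near or below 1 FPKM is understated. Recovered fragment totals were 30893098 to 37381734 per library. Liver identity was clear in every library, with 8 hepatocyte markers summing to between 31080 and 59490 FPKM.

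After ligation 9 of the 10 genes rose, where 22.9% of all tested genes were called higher and 6.76% lower. That split of all calls depends on how libraries are scaled: 2322 genes were higher and 686 lower as deposited, and 1462 higher and 1466 lower with median-of-ratios scaling, under which 7 of the 10 genes were called. The median difference of the members from sham was 1.31 on the log2(FPKM + 1) scale, against 0.16 over all tested genes. In 10 of 10 genes the lowest BDL library lay above the highest sham library, which held for 33.7% of tested genes. On this scale Tubb2a, Actg1 and Tubb6 had the largest differences, and Tuba1b, Tubb5 and Actb the smallest. By the ratio of mean levels Tubb2b, which is near 0 in sham, stood highest at 14.9. Under ligustilide none of the 10 genes passed the test against BDL. Some shares of family RNA did separate the BDL+LIG libraries from the BDL libraries (exact two-sided permutation p = 0.1 each, the smallest possible). Those of Actg1, Tuba1a, Tuba1b, Tubb2b and Tubb5 were higher in every BDL+LIG library, and those of Actb, Tuba1c and Tubb4b lower. Actb and Actg1 are the only genes of their family here, so their shares mirror each other. Shares within a tubulin family are also tied to each other. Fragments of Actg1, Tubb2a, Tubb2b and the 3 alpha-tubulins among the members are hard to assign to 1 gene.

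**Figure D1:**
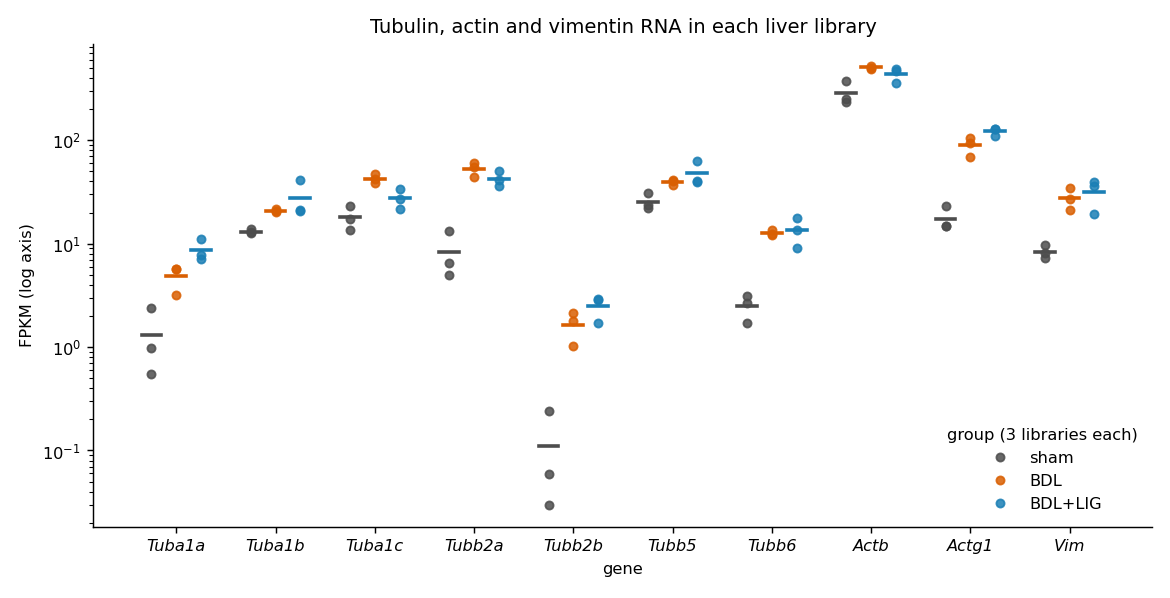
FPKM of the 10 genes (log axis) in each of the 9 libraries, as points coloured by group, with a short line at each group's mean. The BDL points lie above the sham points for 10 of 10 genes, and the highest point of Tuba1b (41.6), Tubb5 (63.0) and Tubb6 (17.6) is BDL+LIG 2.

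Among the 3 alpha-tubulins, Tuba1c had the highest mean level in sham liver. Tuba1c was at 23.3, 13.6 and 17.3 FPKM in sham 1, 2 and 3, 38.4, 42.4 and 46.9 FPKM after ligation, and 26.9, 34.2 and 21.8 FPKM under ligustilide. The BDL libraries stood above all others, with BDL+LIG in between and overlapping sham. The difference of BDL from sham was 1.22 ± 0.20 (adjusted p = 0.00152), a ratio of the mean levels of 2.36.

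Tuba1a, the isotype best known from developing neurons, was scarce in sham liver, at 2.37, 0.550 and 0.990 FPKM. It reached 3.20, 5.69 and 5.65 FPKM after ligation and 7.16, 11.0 and 7.72 FPKM with ligustilide. The 3 groups did not overlap at either step. Tuba1a rose after ligation by 1.39 ± 0.29 (adjusted p = 0.00526), and the ratio of the mean levels was 3.72.

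Tuba1b, a broadly expressed isotype, was the steadiest of these 3 alpha-tubulins within sham and BDL in FPKM as deposited. Its values were 12.6, 12.9 and 13.8 FPKM (sham), 20.4, 21.8 and 20.6 FPKM (BDL), and 20.9, 41.6 and 21.0 FPKM (BDL+LIG). All BDL libraries were above all sham libraries, and 1 BDL+LIG library stood far above the rest. The difference of BDL from sham was 0.64 ± 0.22 and missed the threshold (adjusted p = 0.0536, and 0.00168 to 0.242 over 23 alternatives). It passed without BDL+LIG 1 (adjusted p = 0.0477) or BDL+LIG 2 (0.00168), and with the BDL and sham libraries fitted alone (0.00394).

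Reads of the 3 alpha-tubulins are hard to tell apart. Their coding sequences agree at 97.1% to 98.3% of positions in the GENCODE mouse annotation. Of all 50-base stretches of the transcript, 75.5% for Tuba1a, 83.1% for Tuba1b and 61.0% for Tuba1c also occur in at least 1 other gene, most often another alpha-tubulin of the same group. How the authors' counting split such fragments is unknown from the labels, so the division among the 3 genes is uncertain.

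The beta-tubulin Tubb2a had the largest difference of the members on the log2(FPKM + 1) scale. Tubb2a was at 13.2, 4.97 and 6.49 FPKM in sham liver, 60.3, 55.0 and 44.4 FPKM in BDL and 40.8, 50.3 and 36.2 FPKM in BDL+LIG. Both ligated groups lay far above sham and overlapped each other. Tubb2a rose after ligation by 2.65 ± 0.28 (adjusted p = 7.6e-05), a 6.47-fold higher mean level. RefSeq promoter windows, 250 bases before the annotated start, were at hand for 7 of the 10 genes, all but Actb, Tubb2b and Tubb6. The Tubb2a window holds a TATA box, the letters TATAAA, starting 29 bases before the start, and so does the Vim window at 32 bases. The windows of Tuba1a, Tuba1b, Tuba1c, Tubb5 and Actg1 do not hold these letters on either strand. Of 32851 mouse promoter windows of that length 12.4% hold them. The stretch is shown for its place beside that difference, and the match is a description, not evidence of use. It lies at chr13:34078009-34078158 on the minus strand of GRCm38.p6, an earlier build than the table's, and the capitals mark the TATA box:
Tubb2a: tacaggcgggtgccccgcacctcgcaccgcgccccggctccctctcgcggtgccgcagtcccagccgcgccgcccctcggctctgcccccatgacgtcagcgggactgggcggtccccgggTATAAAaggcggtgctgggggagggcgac

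Tubb2b, its close relative, was nearly absent from sham liver. Sham 1, 2 and 3 had 0.243, 0.0588 and 0.0298 FPKM, which is 17, 4 and 2 fragments. The BDL libraries had 1.03, 1.78 and 2.14 FPKM and the BDL+LIG libraries 2.89, 2.93 and 1.72 FPKM, or 81 to 222 fragments in these 6 libraries. Tubb2b rose after ligation by 1.24 ± 0.20 (adjusted p = 0.00119), and the ratio of the mean levels was 14.9. The size of its difference depends on what is added before the logarithm: it was 1.80 with 0.5 added, 3.13 with 0.1, and 4.14 by voom on fragments. The level was the lowest of the 10 genes in every group. The coding sequences of Tubb2a and Tubb2b agree at 96.5% of positions, and 45.6% of the 50-base stretches of Tubb2a occur in Tubb2b. The division of fragments between the 2 genes is therefore uncertain.

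Tubb6, a beta-tubulin whose sequence shares no 50-base stretch with another gene, had a similar pattern. Its values were 3.11, 1.72 and 2.64 FPKM in sham liver, 12.2, 12.5 and 13.5 FPKM in BDL, and 9.05, 17.6 and 13.6 FPKM with ligustilide. The BDL libraries were tightly grouped, and the BDL+LIG libraries spread to both sides of them. Tubb6 rose after ligation by 2.00 ± 0.22 (adjusted p = 0.000114), a ratio of means of 5.12.

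Tubb5, a widely expressed beta-tubulin, differed less. Tubb5 was at 22.0, 23.9 and 30.7 FPKM in sham liver, 37.3, 40.7 and 41.6 FPKM in BDL, and 39.6, 63.0 and 40.8 FPKM in BDL+LIG. It rose after ligation by 0.64 ± 0.19 (adjusted p = 0.0259), 1.56-fold in mean level, with no overlap between the libraries. That call was the least stable of the 9. It was lost without sham 2 (adjusted p = 0.0797), BDL 1 (0.0522), BDL 2 (0.0844) or BDL 3 (0.0903) and with median-of-ratios scaling (0.35, 0.242), and over 23 alternatives the adjusted p ran from 0.00749 to 0.242.

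Actb, which encodes beta-actin, was the most abundant of the 10 genes in every group. Its levels were 234.5, 251.4 and 375.9 FPKM in sham liver, 491.7, 504.0 and 523.7 FPKM in BDL, and 359.2, 485.9 and 468.1 FPKM in BDL+LIG. The BDL libraries were close together and above all others. Actb rose after ligation by 0.85 ± 0.19 (adjusted p = 0.00746), a 1.76-fold higher mean. With the libraries scaled by the median of ratios the difference was 0.56 and was not called (adjusted p = 0.122). That scaling moved the median of all tested genes in BDL against sham from 0.16 to -0.06.

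Actg1, which encodes gamma-actin, moved further. Actg1 was at 23.2, 14.7 and 14.7 FPKM in sham liver, 69.3, 95.1 and 104.5 FPKM in BDL, and 109.7, 129.2 and 129.2 FPKM in BDL+LIG. The 3 groups formed 3 separate ranges. Actg1 rose after ligation by 2.30 ± 0.20 (adjusted p = 2.29e-05), 5.12-fold in mean level. Of its 50-base stretches 56.7% occur in at least 1 other gene, 51.1% in the pseudogene Gm12715, so its level is uncertain in the same way as those of the alpha-tubulins.

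The Actg1 promoter window is the single one of the 7 that holds a CArG box, the element bound by serum response factor (SRF), a regulator whose coactivators respond to the pool of free actin. The box starts 90 bases before the annotated start and reads as a match on both strands. Of the 32851 windows 1.47% hold a match. The same window has 1 CCAAT box and 6 GGGCGG boxes (overlapping matches counted, both strands), found at least once in 33.8% and 32.7% of all windows. The stretch from 197 to 48 bases before the start is at chr11:120348543-120348692, minus strand, GRCm38.p6, with the CArG box in capitals. The data do not bear on whether it is bound:
Actg1: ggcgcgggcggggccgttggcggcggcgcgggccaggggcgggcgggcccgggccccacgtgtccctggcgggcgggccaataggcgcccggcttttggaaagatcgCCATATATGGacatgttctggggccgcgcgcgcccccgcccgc

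Vim was at 9.75, 7.19 and 8.06 FPKM in sham liver, 21.1, 27.1 and 34.4 FPKM in BDL, and 19.2, 36.5 and 39.6 FPKM in BDL+LIG. Both ligated groups were above sham and overlapped each other. Vim rose after ligation by 1.60 ± 0.26 (adjusted p = 0.00138), 3.30-fold in mean level. The Vim transcript shares no 50-base stretch with another gene, so its value does not depend on how fragments were split.

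**Figure D2:**
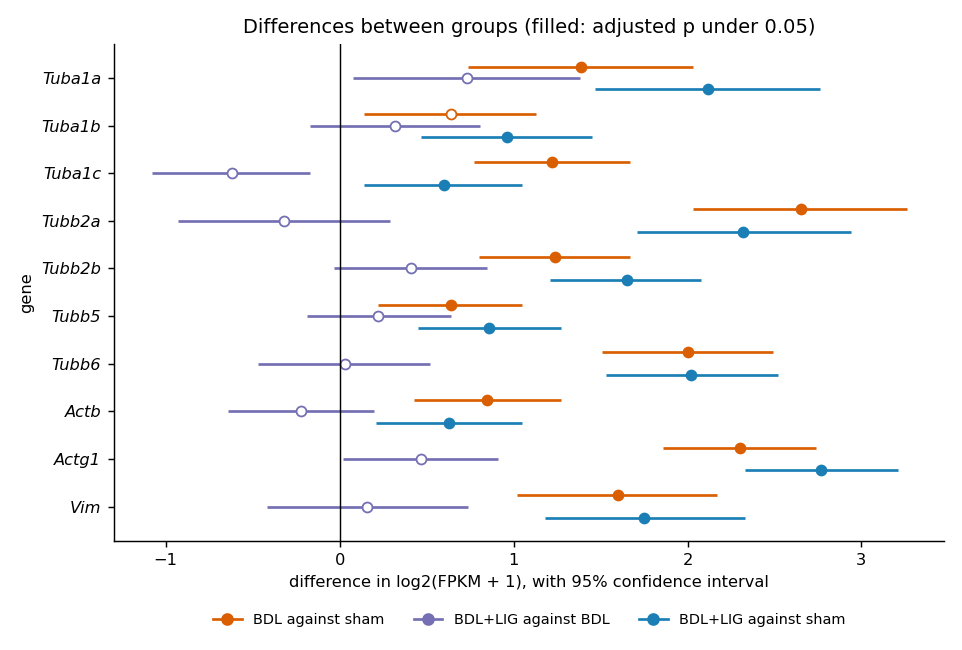
Differences of log2(FPKM + 1) between groups for each gene, with 95% confidence intervals from limma, coloured by comparison. Filled points passed the threshold of 0.05. The BDL against sham points lie between 0.64 and 2.65, and 0 of the 10 points of BDL+LIG against BDL are filled.

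In bulk liver RNA, more cells of a type and more RNA per cell cannot be told apart, and markers of several cell types moved with these genes. Cholangiocyte markers (8 genes, among them Krt7 and Krt19) summed to 19.4 to 35.6 FPKM in sham and 408 to 603 FPKM in BDL, and 6 of 6 tested rose. Most of that sum was Spp1, which encodes osteopontin, at 21.5 ± 7.35 FPKM in sham and 472 ± 89.9 FPKM in BDL (SD, n = 3). Krt7 went from 0.601 to 9.62 FPKM and Krt19 from 1.67 to 14.0 FPKM in mean level. Macrophage markers went from 94.0 to 158 FPKM up to 412 to 564 FPKM, with 10 of 10 tested called higher. Stellate cell and fibroblast markers went from 14.2 to 38.5 FPKM up to 67.2 to 81.3 FPKM, with 5 of 9 tested called higher, and 4 of 4 tested neutrophil markers rose. Endothelial markers ranged from 20.7 to 24.6 FPKM in sham and 27.2 to 29.9 FPKM in BDL, with 1 of 6 called. The summed hepatocyte markers were 49980 to 59490 FPKM in sham and 31080 to 38790 FPKM in BDL. Alb, Apoa1 and Ttr make up most of that sum. Of the 8 hepatocyte markers 1 was called lower (Ttr, -1.93), 1 higher (Tat, 0.99) and 6 neither, with a median difference of -0.07. No marker of these 6 lists was at 0 in every library of a group. Their part in the rise of the cytoskeletal genes was not tested.

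Summed over whole families, including isotypes that are not among the 10, tubulin and actin RNA was higher after ligation. Alpha-tubulin RNA (Tuba1a, Tuba1b, Tuba1c, Tuba4a and Tuba8) came to 62.2 ± 13.2 FPKM in sham and 97.0 ± 4.78 FPKM in BDL (SD, n = 3 each). Beta-tubulin RNA from 8 genes came to 84.2 ± 10.6 and 184 ± 2.92 FPKM. The 2 actins together came to 305 ± 74.5 and 596 ± 33.7 FPKM. The ratios were 1.56, 2.19 and 1.96, with no overlap between the groups in any family (exact two-sided permutation p = 0.1 each, the smallest p that 3 against 3 can give). Because the beta-tubulins differed more, the ratio of alpha- to beta-tubulin RNA was 0.734 ± 0.0644 in sham and 0.526 ± 0.0326 in BDL (SD, n = 3), again without overlap (exact permutation p = 0.1). In BDL+LIG the totals were 83.1 ± 18.8, 162 ± 40.5 and 561 ± 79.8 FPKM (SD, n = 3), each overlapping BDL.

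The isotypes did not move in proportion. A share of the family total does not depend on how a library was scaled. Tuba4a carried 46.5 ± 1.76% of alpha-tubulin FPKM in sham and 28.2 ± 1.97% in BDL (SD, n = 3). Its own level was 29.1 ± 7.24 and 27.3 ± 0.552 FPKM (SD, n = 3), and its difference was -0.06 ± 0.16 by limma (adjusted p = 0.813), or 0.12 without sham 1. Tuba1c took up the largest part of the shift, going from 28.8 ± 1.74% to 43.8 ± 2.32%. Tuba1a went from 1.95 ± 1.04% to 4.96 ± 1.27%, and Tuba1b stayed near one level, at 21.7 ± 4.67% and 21.6 ± 1.09%. The Tuba4a, Tuba1c and Tuba1a shares did not overlap between sham and BDL, and the Tuba1b shares did (exact permutation p = 0.1, 0.1, 0.1 and 1.0, n = 3 each). Tuba4a was singled out after its values were seen.

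In the beta-tubulins Tubb4b, the most abundant isotype of sham liver, lost share from 56.6 ± 3.50% to 41.5 ± 1.89% although its level rose by 0.68 ± 0.18 (adjusted p = 0.0186). That call of Tubb4b was lost without sham 2 (adjusted p = 0.0685), sham 3 (0.0507), BDL 2 (0.0589) or BDL 3 (0.0683) and with median-of-ratios scaling (0.39, 0.0919). Tubb2a went from 9.47 ± 3.92% to 28.8 ± 3.99% of beta-tubulin FPKM. Tubb6 went from 2.92 ± 0.507% to 6.92 ± 0.469%, and Tubb2b from 0.124 ± 0.118% to 0.897 ± 0.316%. Tubb5 went the other way, from 30.7 ± 6.70% to 21.6 ± 1.45%, despite its higher level. The libraries of sham and BDL were separate for all 5 shares (exact permutation p = 0.1 each, n = 3).

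Actb exceeded Actg1 10.1-, 17.1- and 25.6-fold in sham 1, 2 and 3, and 7.09-, 5.30- and 5.01-fold in the BDL libraries. The ratio in BDL+LIG was 3.27, 3.76 and 3.62. Actg1 thus carried 6.09 ± 2.66% of cytoplasmic actin FPKM in sham (SD, n = 3). Its part was 15.0 ± 2.28% after ligation and 22.0 ± 1.24% with ligustilide. The groups did not overlap at either step (exact permutation p = 0.1 each, n = 3).

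**Figure D3:**
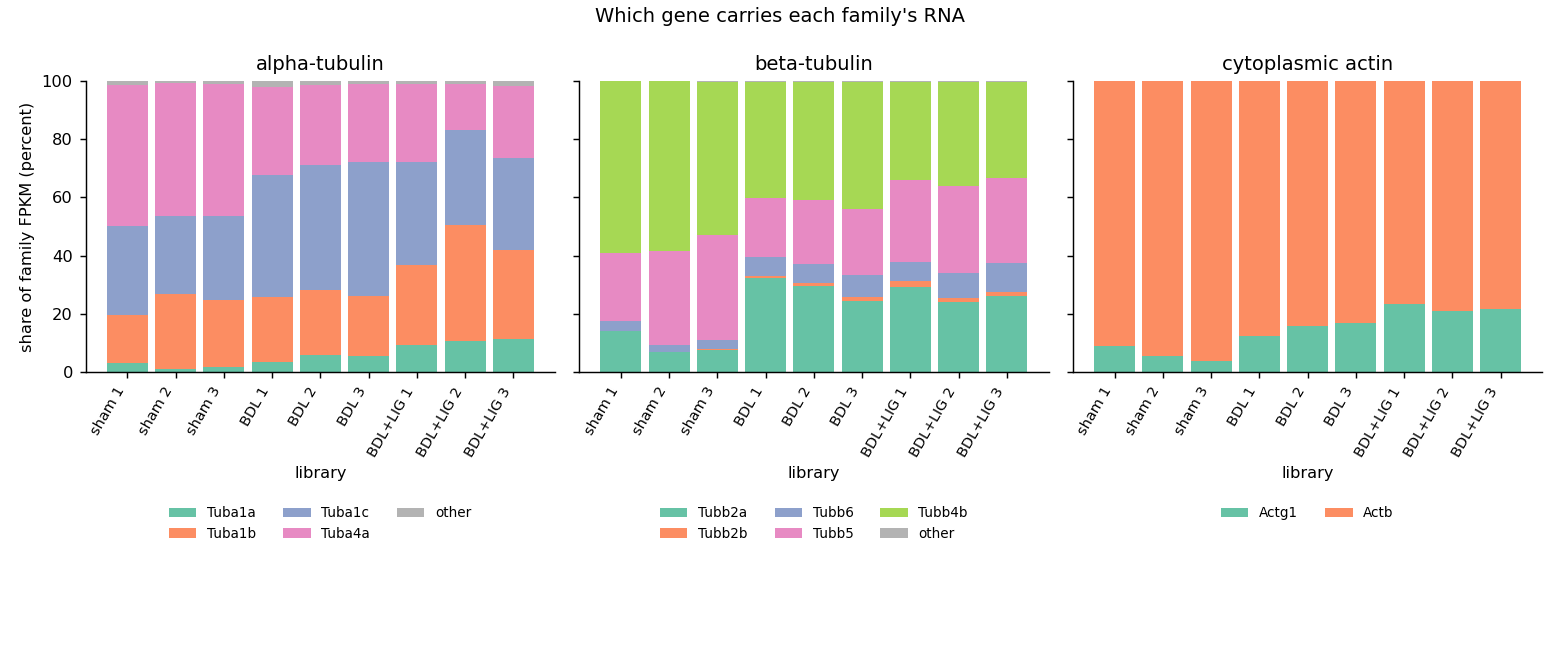
Share of the summed FPKM of the alpha-tubulin, beta-tubulin and cytoplasmic actin genes carried by each gene, as stacked bars for each of the 9 libraries. The Actg1 part goes from 3.77 to 8.99% in sham to 12.4 to 16.6% in BDL and 21.0 to 23.4% in BDL+LIG.

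The order of the levels also changed. In sham Actb was followed by Tubb5, Tuba1c, Actg1, Tuba1b, Vim, Tubb2a, Tubb6, Tuba1a and Tubb2b. The libraries of the neighbours Tubb5 and Tuba1c, Tuba1c and Actg1, Vim and Tubb2a, and Tubb6 and Tuba1a overlapped. In BDL the order was Actb, Actg1, Tubb2a, Tuba1c, Tubb5, Vim, Tuba1b, Tubb6, Tuba1a and Tubb2b. Here Tubb2a and Tuba1c, Tuba1c and Tubb5, and Vim and Tuba1b overlapped. In BDL+LIG it was Actb, Actg1, Tubb5, Tubb2a, Vim, Tuba1b, Tuba1c, Tubb6, Tuba1a and Tubb2b, and all neighbours from Tubb5 to Tuba1c overlapped, as did Tubb6 and Tuba1a.

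Ligustilide in ligated mice was compared with ligation alone in the second comparison, which shares the BDL libraries with the first. By limma 0 of the 10 genes were called, where 11.8% of all tested genes were (9.98% higher and 1.79% lower). The split was 1012 higher and 182 lower as deposited, 275 and 355 with median-of-ratios scaling, and 482 and 467 after quantile normalization. At an unadjusted p under 0.05 there were 3 of the 10 genes and 3224 of all tested genes. The median difference of the members was 0.19 and that of all tested genes 0.18. The members spread from -0.62 for Tuba1c to 0.73 for Tuba1a.

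Tuba1a and Actg1 were higher in every BDL+LIG library than in every BDL library, as 40.7% of tested genes were. The Tuba1a difference was 0.73 ± 0.29 (95% interval 0.08 to 1.38, adjusted p = 0.116), and it passed without sham 1 (0.0296). The Actg1 difference was 0.47 ± 0.20 (interval 0.02 to 0.91, adjusted p = 0.138), and it passed without sham 1 (0.0395). Over all alternatives the adjusted p ran from 0.0296 to 0.353 for Tuba1a and from 0.0395 to 0.43 for Actg1. Cell markers differed between the same groups. Endothelial markers summed to 27.2 to 29.9 FPKM in BDL and 47.1 to 68.1 FPKM in BDL+LIG, with 6 of 6 tested called higher. Stellate cell and fibroblast markers summed to 67.2 to 81.3 and 101 to 194 FPKM, with 3 of 9 called higher (Lrat, Reln and Pdgfrb). Macrophage markers overlapped, at 412 to 564 and 513 to 1061 FPKM, with 1 of 10 called higher. The part of these cells in the Tuba1a and Actg1 values was not tested.

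Tuba1c and Actb were lower in every BDL+LIG library than in every BDL library, as 10.5% of tested genes were. The Tuba1c difference was -0.62 ± 0.20 (interval -1.08 to -0.17, adjusted p = 0.0681), and its mean level was 0.649 of that in BDL. It passed without sham 1 (adjusted p = 0.0198), with median-of-ratios scaling (-0.88, adjusted p = 0.0193) and with the BDL and BDL+LIG libraries fitted alone (0.0209), and the adjusted p ran from 0.0193 to 0.199 over 23 alternatives. The Actb difference was -0.22 ± 0.19 (interval -0.64 to 0.20, adjusted p = 0.44).

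For the other 6 genes the libraries of the groups overlapped and the intervals held 0. They ran from -0.17 to 0.81 for Tuba1b, -0.93 to 0.29 for Tubb2a, -0.03 to 0.85 for Tubb2b, -0.19 to 0.64 for Tubb5, -0.47 to 0.52 for Tubb6 and -0.42 to 0.74 for Vim. Changes of up to these sizes are within the data, so equality was not shown.

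Several shares separated the libraries of the 2 ligated groups. Tuba1b carried 32.7 ± 6.52% of alpha-tubulin FPKM in BDL+LIG, Tuba1a 10.4 ± 0.946% and Tuba1c 33.3 ± 1.83% (SD, n = 3). The first 2 were above and the third below every BDL library. Tubb5 was at 29.3 ± 0.918% and Tubb4b at 34.0 ± 1.36% of beta-tubulin FPKM, the former above and the latter below every BDL library. Tubb2b, whose fragments are hard to tell from those of Tubb2a, was at 1.57 ± 0.436%, also above every BDL library. Each of these contrasts gave an exact permutation p of 0.1 (n = 3 each), the smallest possible. The fragments shared among Tuba1a, Tuba1b and Tuba1c bear on the first 3. Tubb5 itself shares 0.1% of its 50-base stretches with other genes, but its share also rests on the rest of the family. There Tubb2a shares 49.6% of its stretches, and those of Tubb4b were not examined.

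Against sham, with which both earlier comparisons share libraries, 10 of the 10 genes were higher in BDL+LIG, where 43.7% of all tested genes were called higher. The median difference was 1.70 for the members and 0.34 over all tested genes. Actg1 was 2.77 ± 0.20 higher (adjusted p = 6.66e-06), Tubb2a 2.32 ± 0.28 (0.000102) and Tuba1a 2.12 ± 0.29 (0.000234). The libraries did not overlap for 8 of 10 genes, as was the case for 45.7% of tested genes, with Tuba1c and Actb the exceptions. Tuba1c was 0.60 ± 0.20 higher (adjusted p = 0.0308), a call lost without sham 2 (0.122), sham 3 (0.0685), BDL+LIG 1 (0.0652) or BDL+LIG 2 (0.119). Actb was 0.63 ± 0.19 higher (adjusted p = 0.018), a call lost without sham 2 (0.068), BDL+LIG 2 (0.0633) or BDL+LIG 3 (0.063). With median-of-ratios scaling 6 of the 10 genes were called, and Tuba1b, Tuba1c, Tubb5 and Actb were not. Their differences were then 0.43 (adjusted p = 0.132), 0.06 (0.775), 0.32 (0.244) and 0.07 (0.838), so that those of Tuba1c and Actb were close to 0.

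One BDL+LIG library carried the highest level of several tubulins. In BDL+LIG 2 Tuba1b was at 41.6, Tubb5 at 63.0 and Tubb6 at 17.6 FPKM, against 20.9 and 21.0, 39.6 and 40.8, and 9.05 and 13.6 FPKM in BDL+LIG 1 and 3. Stmn1, the microtubule-destabilising protein stathmin, was at 40.3 FPKM there and at 13.0 and 13.7 FPKM in the other 2. Stmn1 was singled out after its values were seen. The 6 proliferation markers, among them Mki67 and Top2a, summed to 24.6 FPKM in BDL+LIG 2 and to between 1.43 and 6.00 FPKM in the other 8 libraries. Mki67 was at 2.91 FPKM there and at 0.117 to 0.481 FPKM elsewhere. Without this library the difference of BDL+LIG from BDL was 0.00 for Tuba1b, 0.01 for Tubb5 and -0.18 for Tubb6, in place of 0.32, 0.22 and 0.03. The part of dividing cells in these values was not tested.

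**Figure D4:**
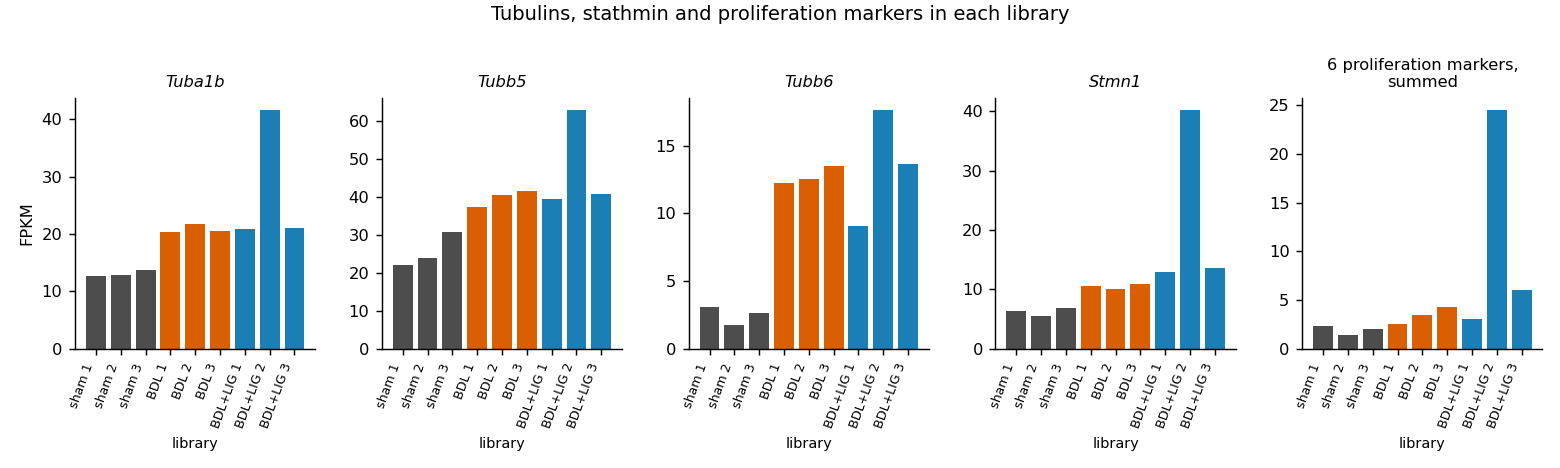
FPKM of Tuba1b, Tubb5, Tubb6 and Stmn1, and the summed FPKM of 6 proliferation markers, as bars for each of the 9 libraries (grey sham, orange BDL, blue BDL+LIG), each panel with its own axis from 0. BDL+LIG 2 is the highest bar in every panel, at 41.6, 63.0, 17.6, 40.3 and 24.6 FPKM.

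The spread within sham was of another kind. In FPKM as deposited, sham 1 had the highest sham value of Tuba1a, Tuba1c, Tubb2a, Tubb2b, Tubb6, Actg1 and Vim. Sham 3 had that of Tuba1b, Tubb5 and Actb. Median-of-ratios scaling would divide sham 1 by 0.978, and sham 2 and 3 by 0.761 and 0.745. The order of the sham libraries and the spread within sham therefore depend in part on the scaling. The coefficient of variation in sham was 105% for Tubb2b, 72.8% for Tuba1a and 53.3% for Tubb2a, and 4.64% for Tuba1b. In sham 1 the stellate cell and fibroblast markers summed to 38.5 FPKM and the cholangiocyte markers to 35.6 FPKM, above the 14.2 and 24.6, and 19.4 and 22.8 FPKM of sham 2 and 3. Macrophage markers were lowest in sham 1, at 94.0 against 146.9 and 158.1 FPKM in sham 2 and 3. Neutrophil markers were lowest there too, at 4.11 against 5.47 and 5.77 FPKM. The part of any of these cells in the sham 1 values was not tested.

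Genes that act on tubulin were taken from lists of their own. Over all tested genes 22.9% were called higher after ligation and 6.76% lower, with a median difference of 0.16. Of 22 chaperones and cofactors of tubulin folding 3 rose and 0 fell, with a median difference of 0.17. They were Pdcl3, a cochaperone of the CCT chaperonin (0.71 ± 0.12, adjusted p = 0.00146), Pfdn4, a prefoldin subunit (0.74 ± 0.15, 0.00477), and Tbcd, a cofactor of tubulin dimer assembly (0.46 ± 0.14, 0.0299). Without sham 1 the count was 7. With median-of-ratios scaling 1 was called higher and 3 lower, and Pfdn4 (0.50, 0.0665) and Tbcd (0.22, 0.242) were not called. The Tbcd call was lost without sham 3 (0.0791), BDL 2 (0.145) or BDL 3 (0.102). The 8 CCT chaperonin subunits of the list were not called.

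Of 12 tested genes of tubulin autoregulation and modification 2 rose and 1 fell, where 22.9% of all tested genes rose and 6.76% fell. Ttl, the ligase that restores the terminal tyrosine of alpha-tubulin, rose by 0.45 ± 0.11 (adjusted p = 0.012), and Ttll12, of the same family, by 0.53 ± 0.16 (0.0329). Atat1, the acetylase of alpha-tubulin, fell by 1.02 (SE 0.29, adjusted p = 0.0219). With 1 library left out some of these calls missed the threshold while the differences stayed about as large. Ttl was 0.44 without BDL 2 (adjusted p = 0.0548), and Atat1 -0.96 without BDL 1 (0.0702) and -0.99 without BDL 2 (0.0721). Ttll12 was 0.54 without sham 2 (0.0729), 0.49 without BDL 1 (0.102), 0.58 without BDL 2 (0.0708) and 0.52 without BDL 3 (0.0996). The scaling moved Ttll12 further, to 0.35 with the median of ratios (0.145) and 0.30 after quantile normalization (0.238), where Ttl was 0.28 (0.0608). Ttc5 and Cnot1 take part in the decay of tubulin mRNA when free tubulin is in excess. Both were higher in BDL+LIG than in BDL, Ttc5 by 0.50 ± 0.13 (adjusted p = 0.037) and Cnot1 by 0.95 ± 0.24 (0.0332). These were 2 calls among the 12 tested genes, and Cnot11 of the same list was not called. The Ttc5 call held in 10 of 22 alternatives and the Cnot1 call in 15 of 23. Both were lost without BDL 1, BDL 2 or BDL 3 (adjusted p = 0.0815 to 0.151 and 0.0855 to 0.126). With median-of-ratios scaling the differences were 0.31 (0.118) and 0.71 (0.0503).

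Of 19 tested microtubule binding proteins 4 rose after ligation, a share near the 22.9% of all tested genes. They were Map7d1 (0.98 ± 0.12, adjusted p = 0.000183), the plus-end protein Mapre1 (0.65 ± 0.14, 0.00683), Clasp1 (0.49 ± 0.15, 0.0276) and Map4 (0.48 ± 0.15, 0.034). The count was 10 without sham 1, and 2 without any 1 of sham 2, sham 3, BDL 1, BDL 2 or BDL 3. Against sham 13 of the 19 were higher in BDL+LIG, where 43.7% of all tested genes were, and 5 were with median-of-ratios scaling. Stmn1 was higher in every BDL library than in every sham library, but its difference of 0.68 ± 0.34 missed the threshold (adjusted p = 0.161). It passed in 2 of 23 alternatives, without BDL+LIG 2 (0.00314) and with the BDL and sham libraries fitted alone (0.00696).

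Many genes that act on actin rose after ligation. Over all tested genes 22.9% were called higher and the median difference was 0.16. Of 33 tested genes of actin monomer binding and filament assembly 24 rose after ligation and 0 fell, with a median difference of 0.70. Capg, a capping protein abundant in macrophages, rose by 1.90 ± 0.24 (adjusted p = 0.000283). The Arp2/3 subunits Arpc1b (1.38 ± 0.17, 0.000241) and Arpc5 (0.85 ± 0.11, 0.000298) also rose. Of 31 tested crosslinkers and motors 23 rose and 0 fell, with a median of 0.85. Tagln2, an actin-bundling protein, rose by 3.17 ± 0.20, from 8.13 ± 3.11 to 78.1 ± 2.67 FPKM (SD, n = 3). The myosin light chains Myl12a and Myl12b rose by 1.68 ± 0.12 and 1.66 ± 0.13. Counts of genes called higher in the 2 lists were 17 to 25 and 18 to 25 with 1 library left out. Under the other alternatives they were 16 to 26 and 19 to 24.

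**Figure D5:**
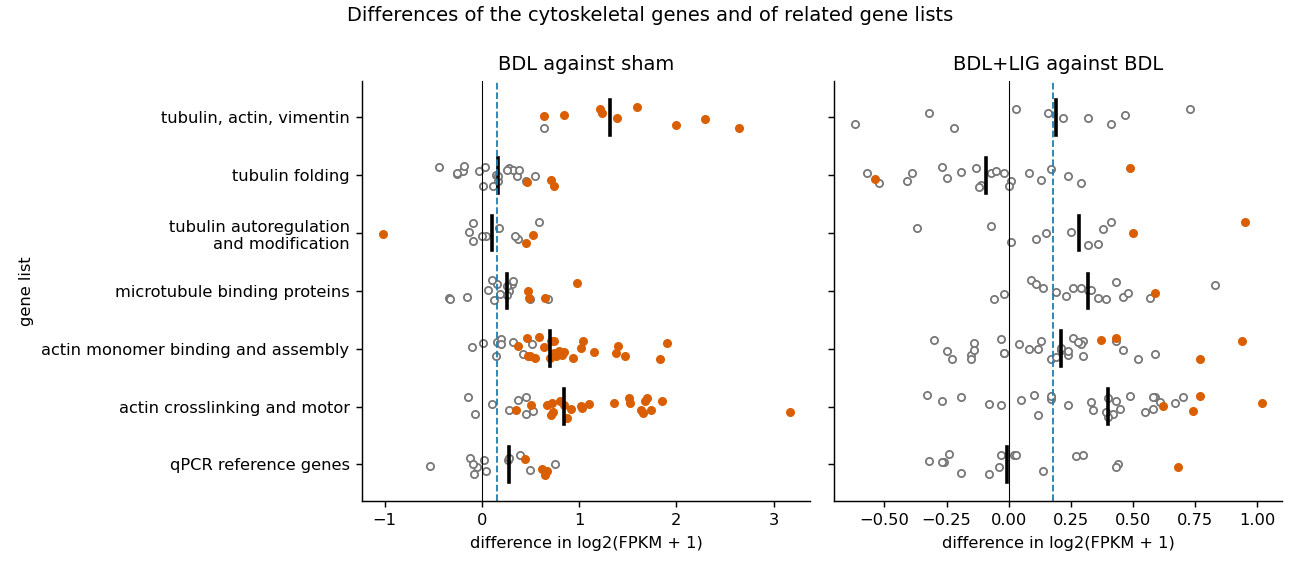
Differences of log2(FPKM + 1) for the 10 genes and for 6 related lists, 1 point per tested gene (orange: adjusted p under 0.05, vertical spread only for legibility), in BDL against sham and BDL+LIG against BDL. Black bars are medians and the dashed line is the median of all tested genes. In BDL against sham the medians were 1.31 for the 10 genes, 0.70 and 0.85 for the 2 actin lists and 0.17 for tubulin folding.

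Smooth muscle actin, Acta2, is the marker of activated stellate cells. It was at 3.99, 1.58 and 0.495 FPKM in sham and 1.94, 3.72 and 4.43 FPKM in BDL, and its difference was 0.66 ± 0.40 (adjusted p = 0.25). Sham 1 lay within the BDL range, and without it the Acta2 difference was 1.11 (adjusted p = 0.0212). Of 6 tested genes of the SRF and MRTF list 2 rose after ligation, where 22.9% of all tested genes did. Ablim1 rose by 1.22 ± 0.23 (adjusted p = 0.00308). Mrtfa, an actin-sensing coactivator of SRF, rose by 0.59 ± 0.19 (0.0371). The Mrtfa call was lost without sham 2 (0.125), sham 3 (0.0536), BDL 1 (0.0576), BDL 2 (0.0964), BDL 3 (0.14) or BDL+LIG 3 (0.0537) and with median-of-ratios scaling (0.42, 0.0709). The list had 4 calls without sham 1 and 1 without any 1 of the 6 libraries just named.

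Other intermediate filament genes rose with Vim in part. Of 7 tested 3 rose after ligation, where 22.9% of all tested genes did. Krt8 and Krt18, the keratin pair of hepatocytes and duct cells, went from 105.6 ± 7.53 and 148.7 ± 13.9 FPKM to 785.5 ± 7.09 and 845 ± 12.3 FPKM (SD, n = 3), with differences of 2.89 ± 0.14 and 2.50 ± 0.14. The nuclear lamin gene Lmna rose by 0.98 ± 0.11 (adjusted p = 0.000115). Krt18 and Krt8 were lower in BDL+LIG than in BDL, with differences of -0.79 ± 0.14 (adjusted p = 0.0132) and -0.56 ± 0.14 (0.0322). Vim differed by 0.16 ± 0.26 in the same comparison.

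The calls of BDL+LIG against BDL in these lists are to be read beside the 11.8% of all tested genes called. They were, for example, 4 of 33 tested genes of actin monomer binding and assembly and 4 of 31 crosslinkers and motors (all higher). Of 22 tubulin folding genes 1 was called higher and 1 lower. Beside those named above they included Vasp (0.94 ± 0.16, adjusted p = 0.0128), Coro1c (0.77 ± 0.16, 0.0205), Flna (1.02 ± 0.19, 0.0146), Myh10 (0.74 ± 0.16, 0.0214), Map4 (0.59 ± 0.15, 0.0343), Fhl1 (0.66 ± 0.19, 0.0462), Tbcd (0.49 ± 0.14, 0.0467), and, lower, Pfdn4 (-0.54 ± 0.15, 0.0476) and Tuba4a (-0.58 ± 0.16, 0.0479). Of the 16 reference genes 1 was called, Gusb, which was higher (limma, adjusted p = 0.0321). Of the 14 genes named for this comparison 0 kept the call in every alternative. Without BDL 1, BDL 2 or BDL 3 their adjusted p lay between 0.0538 and 0.183, and 40, 0 and 54 of all tested genes were called. Flna and Vasp, which crosslink and extend actin filaments, had the smallest adjusted p of the genes that were higher.

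Reference genes were set beside Actb because it is commonly one of them. The 16 such genes had a median difference of 0.27 after ligation, against 0.16 over all tested genes. Of them 4 rose, a share near the 22.9% of all tested genes. They were Ywhaz (0.62 ± 0.11, adjusted p = 0.00186), Rplp0 (0.65 ± 0.15, 0.00804), Gusb (0.67 ± 0.17, 0.0132) and Hprt (0.44 ± 0.12, 0.0225). Gusb was not called without BDL 2 (0.0588) or BDL 3 (0.0517), and Hprt without sham 3 (0.058), BDL 2 (0.102) or BDL 3 (0.0964). The count was 7 without sham 1 and 2 without BDL 2 or BDL 3. With median-of-ratios scaling it was 1, and Ywhaz (0.34, 0.0974), Rplp0 (0.36, 0.282) and Hprt (0.16, 0.416) were not called. Gapdh, chosen for its common use, was at 44.3 ± 2.22 FPKM in sham and 40.7 ± 1.59 FPKM in BDL (SD, n = 3), with a difference of -0.12 ± 0.12 (limma, adjusted p = 0.516). Divided by Actb, Gapdh came to 0.162 ± 0.0448 in sham and 0.0805 ± 0.00560 in BDL (SD, n = 3), a ratio of 0.497. Over the 16 genes divided by Actb, the BDL to sham ratio ran from 0.384 for B2m to 1.03 for Tfrc.

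The genes whose profile over the 9 libraries was most like each member were found by the root mean square difference of centred log2(FPKM + 1) values, over all tested genes outside the 10. The distances are descriptions over libraries that share their groups. Vim was nearest to Golm1 (0.164), Arpc1b (0.165) and Ccr2 (0.178), and Actg1 to Cd24a (0.164), Klf6 (0.179) and Col4a1 (0.181). Actb was nearest to Ppp1r14b (0.102), B4galt1 and Jund (0.12 and 0.121). Tuba1a was nearest to Emp1 (0.177), Lum (0.18) and Ccdc80 (0.199), and Tuba1c to Tceal8 (0.167), Dmbt1 and Lipt2 (both 0.212). Tuba1b was nearest to Cd276 (0.112), Car2 (0.125) and Dck (0.147), and Tubb5 to Dhrs13 (0.112), Camk1 (0.113) and Ttll12 (0.118). Tubb2a stood further from its nearest genes, Mtmr11 (0.208), Atp6v0d2 (0.266) and Ddit4 (0.325). Tubb2b was nearest to St14 (0.12), F2rl1 (0.157) and Bicc1 (0.173), and Tubb6 to Phlda3 (0.146), Cd9 (0.153) and Lacc1 (0.168).

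Among the 10 genes themselves, 3 pairs were each other's nearest member: Tuba1b and Tubb5 at 0.135, Tubb6 and Vim at 0.256, and Tuba1a and Tubb2b at 0.333. The first pair was close on the scale of the whole table, with 2 tested genes nearer to Tuba1b than Tubb5 was and 12 nearer to Tubb5 than Tuba1b was. For the last pair, 65 tested genes were nearer to Tuba1a than Tubb2b was, and 465 nearer to Tubb2b than Tuba1a was. For Tubb6 and Vim the counts were 21 and 33.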

How the data were processed

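The authors deposited a single FPKM table covering 21470 genes, whose 9 columns match the sample titles. Per the submitters' processing notes, the tools included fastp, HISAT2 2.1.0 and DESeq2, with mouse build GRCm39. Annotation, counting program and the handling of shared fragments were not given in the sources used here. Members, related lists and tests were chosen with earlier results of these data known.

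A gene was tested where 3 or more libraries reached 1 FPKM (10142 genes). The test was limma 3.58.1 in R 4.3.3, with a trended prior, on log2(FPKM + 1), all 9 libraries fitted together. Benjamini-Hochberg adjustment ran over all tested genes, with a threshold of 0.05. The script was tested on simulated data. Ratios of levels are ratios of group means in FPKM. Shares and family totals were compared by exact two-sided permutation tests, for which 3 against 3 gives 0.1 at the lowest.

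Whole fragments were recovered from the FPKM steps for 99.98% of 19449 genes (within 0.02 fragments), with Alb, Apoe and COX1 unresolved, and sum to 30893098 to 37381734 per library. They served for depth and for voom as an alternative.

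All 10 genes are named. The rule also took from each related list up to 3 genes with the smallest p in BDL against sham and up to 2 that passed in BDL+LIG against BDL, reference genes by p, and for each member the 3 genes nearest in profile. Acta2 is both in a list and a stellate marker. Genes outside the rule are said to be so.

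Deviations from the group mean correlated at -0.126 to 0.285 between same-numbered libraries of different groups. Differently numbered ones correlated at -0.304 to 0.14. The highest values were for sham 3 with BDL+LIG 3 (0.285) and sham 1 with BDL+LIG 1 (0.254). Same-numbered sham and BDL libraries were at -0.126 to 0.001. A pairing by number was thus not settled. Replicate numbers were taken as names in the main fit, and a replicate block is among the alternatives. The alternatives changed the pseudocount (0.1 or 0.5), the filter (none, or a 5 FPKM mean), the scaling (median of ratios, TPM, quantile, or a total that leaves out the top 20 genes), the prior (robust, untrended), the libraries fitted (the compared pair of groups, or 1 library left out), or the model (replicate block, voom, loess length trend of span 0.4). Promoters are from RefSeq (GRCm38.p6), and shared stretches and coding identity from GENCODE transcripts of that earlier build.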

Additional observations from a re-analysis of the deposited data

How the results depend on the processing

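The rise of Tuba1a, Tuba1c, Tubb2a, Tubb2b, Tubb6, Actg1 and Vim after ligation kept its direction and call under every alternative that could be run, and the members called in that comparison numbered 8 to 10 with 1 library left out. Over all genes, calls of BDL against sham went from 3008 to 1838 with a mean of at least 5 FPKM, and ranged from 1894 to 4668 with 1 library left out (4668 without sham 1, 1894 without BDL 3, 1902 without BDL 2). For BDL+LIG against BDL the members called were 0, but 1 under median-of-ratios scaling, 1 after quantile normalization, 2 with the compared groups alone, and 0 to 3 with 1 library left out (3 without sham 1). All genes called there went from 1194 to 623 without a filter, 575 with a mean of at least 5 FPKM, 630 with median-of-ratios scaling, 1926 with TPM, 1970 without the 20 most abundant genes, 3433 with the compared groups alone, 742 with the replicate block, 498 with the length trend removed, and 0 to 3144 with 1 library left out (0 without BDL 2, 40 without BDL 1, 54 without BDL 3, 289 without BDL+LIG 2, 322 without BDL+LIG 3, 716 without BDL+LIG 1, 3144 without sham 1). For BDL+LIG against sham 6 members were called with median-of-ratios scaling, and 2765 of all genes with the higher filter in place of 5335. With the replicate block Tuba1b was also called after ligation (adjusted p = 0.0474), and no other call of a member changed.

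Signs turned in BDL+LIG against BDL for Tubb5 (-0.04) and Vim (-0.10) with median-of-ratios scaling. They turned for Tubb6 with that scaling (-0.22), quantile normalization (-0.12) and the length trend removed (-0.01). With 1 library left out Tubb6 ranged from -0.18 to 0.26 and Vim from -0.03 to 0.48. Tuba4a in BDL against sham was 0.03 with TPM and -0.21 to 0.12 with 1 library left out. Shares taken from recovered fragments, which weight genes by length, moved by 3.94 percentage points for Tuba1a, -5.87 for Tuba1c and 9.21 for Tubb5 between BDL and BDL+LIG, and -11.1 for Tubb4b between sham and BDL, in place of 5.43, -10.6, 7.70 and -15.1. The cause of the other changes was not tested. Depth limits Tubb2b most, with 2 to 17 fragments in sham, and Tuba1a had 31 to 137 there.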
